A study of Mus musculus with 18 samples.

Results

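Germ cell specification in culture was described across all genes by setting day-4 primordial germ cell-like cells (d4 PGCLCs) against the epiblast-like cells (EpiLCs) from which such cells are induced. Members were chosen by title, and they are 4 of the 18 mouse libraries of a study on the survival and growth of PGCLCs in culture, 2 of d4 PGCLCs and 2 of EpiLCs. The d4 PGCLCs grew as floating aggregates up to day 4 in serum-free medium with BMP4 at 500 ng/ml, LIF at 1000 U/ml, SCF at 100 ng/ml and EGF at 50 ng/ml, and mVenus-positive cells were then sorted. EpiLCs were taken unsorted, and the protocol names EpiLCs of day 2, made from embryonic stem cells (ESCs) on fibronectin with activin A at 20 ng/ml, FGF2 at 12 ng/ml and serum replacement, as the starting cells of the induction. Both groups are C57BL/6 and carry the BVSC reporters, Blimp1-mVenus and Stella-ECFP. Blimp1 is the protein of Prdm1, so the Prdm1 level of d4 PGCLCs is not independent of the sort. Since d4 PGCLCs were sorted and EpiLCs were not, what sorting did and what induction did cannot be told apart. The labels do not say whether the 2 libraries of a group came from separate cultures, so the p-values may measure technical spread.

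In the mouse embryo, primordial germ cells are set aside from the epiblast by BMP4 made in the neighbouring extraembryonic tissue, with WNT3 needed for the epiblast to respond. Prdm1, Prdm14 and Tfap2c encode the transcription factors that carry out the change: the somatic programme is held off, pluripotency genes are switched on again, and the removal of DNA methylation begins. EpiLCs stand for the epiblast before gastrulation, and the added LIF, SCF and EGF support the induced germ cells.

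Expression was measured by SC3-seq, which reads the 3′ ends of transcripts, from 1 ng of RNA per library. Values are RPM, reads of a gene per 1000000 reads of the library, with no correction for transcript length. Depth, inferred from the smallest step between values, was 2129326 and 5178709 reads in the d4 PGCLC libraries and 5249769 and 2584565 reads in the EpiLC libraries, so that 3 reads are worth 1.41 and 0.579 RPM in d4 PGCLCs and 0.571 and 1.16 RPM in EpiLCs. Differences between lower levels than these were not detectable at this depth. A log2 change is the difference between the group means of log2(RPM + 1), d4 PGCLC minus EpiLC, given with its standard error (SE) from limma. A gene was called higher or lower, or is said to have risen or fallen, at a Benjamini-Hochberg adjusted p under 0.05 over all 9561 tested genes.

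Of the 9561 tested genes, 3784 (39.6%) were called, 2629 higher (27.5%) and 1155 lower (12.1%) in d4 PGCLCs. The median gene stood 0.34 higher on the log2 scale. With median-ratio scaling, under which the typical gene does not move (median -0.00365), 1645 genes were higher (17.2%) and 1801 lower (18.8%), so which direction is the more frequent depends on the scaling. No gene was called in opposite directions under the 2 scalings. Both d4 PGCLC libraries lay above both EpiLC libraries for 5004 tested genes (52.3%) and below both for 2591 (27.1%), so a lack of overlap alone says little about a gene. Changes were large: 681 genes rose and 485 fell by at least 2 on the log2 scale, and 88 rose and 74 fell by at least 4. Among called genes, 36 that rose were listed at 0 in both EpiLC libraries and 30 that fell were listed at 0 in both d4 PGCLC libraries. Without EpiLC replicate 2 the count of called genes was 2413 and without d4 PGCLC replicate 1 it was 2329, and calls lower numbered 748 without EpiLC replicate 1.

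**Figure D1:**
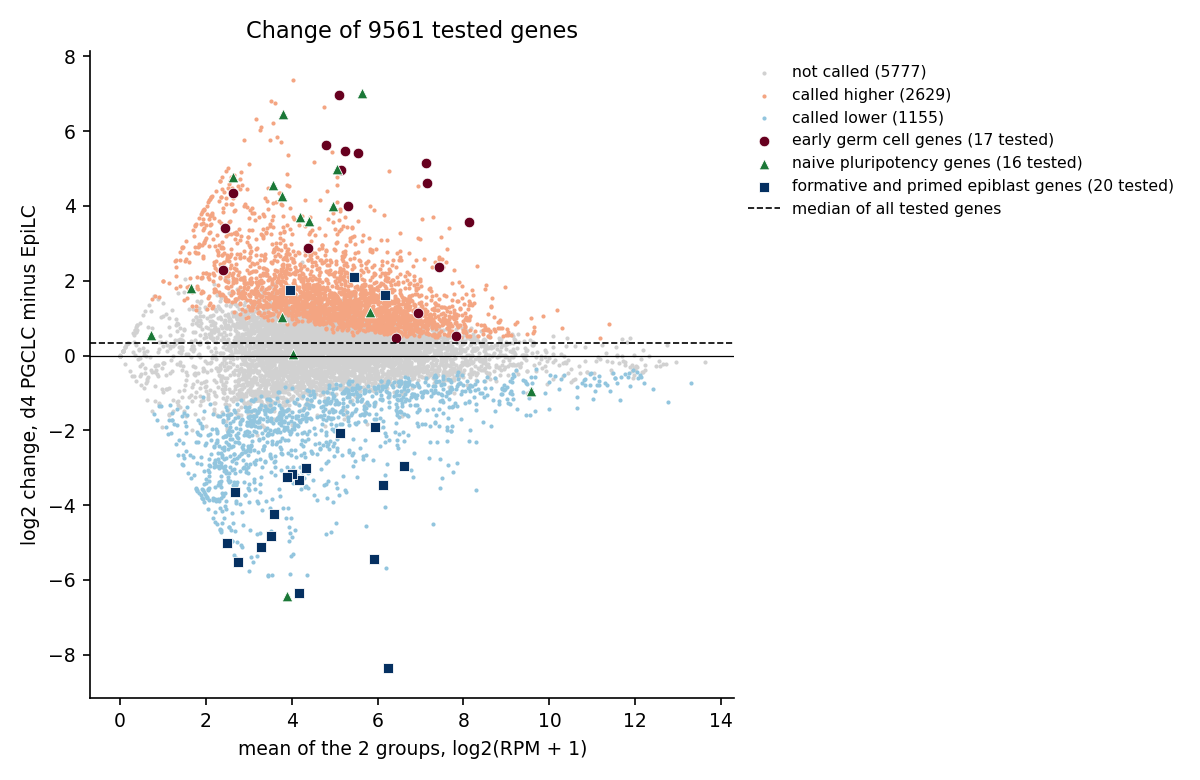
Log2 change (d4 PGCLC minus EpiLC, vertical) of the 9561 tested genes against their mean level in both groups (horizontal, log2(RPM + 1)); each point is a gene, coloured by its call, and the dashed line is the median of all tested genes at 0.34. Early germ cell genes (circles) lie above the line, 17 of 20 formative and primed epiblast genes (squares) lie below 0, and naive pluripotency genes (triangles) are mostly above, with Fgf4 at -6.42 and Dppa5a at -0.96 below.

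The 3 specification factors were clearly expressed in both d4 PGCLC libraries and at or near 0 in both EpiLC libraries. Tfap2c (AP-2 gamma, chromosome 2, 172545678 to 172558622, GRCm38.p6), which acts below Prdm1 in the germ line, was at 205 and 206 RPM in d4 PGCLCs, against 0.571 and 0 RPM in EpiLCs. Prdm14 (chromosome 1, 13113428 to 13127163), needed for pluripotency genes to return and for methyltransferase genes to be silenced, was at 129 and 113 RPM in d4 PGCLCs, against 0.190 and 0 RPM in EpiLCs. Prdm1 (chromosome 10, 44437174 to 44528558), a repressor of somatic genes, was at 117 and 136 RPM in d4 PGCLCs, against 0 and 0.387 RPM in EpiLCs. In each case the lowest d4 PGCLC library lay far above the highest EpiLC library, whose values correspond to at most 3 reads. The log2 changes were 7.36 ± 0.26 (SE) for Tfap2c, 6.80 ± 0.31 for Prdm14 and 6.75 ± 0.43 for Prdm1 (limma adjusted p = 6.44e-12, 8.00e-11 and 7.06e-09). Tfap2c and Prdm14 were among the 4 genes with the largest rise of the called genes without overlap. Predicted, microRNA, small nucleolar RNA and pseudogene names were left out of this ranking. In ESCs, which were not part of the comparison, the same genes had 37.4 and 31.4 RPM (Tfap2c), 32.6 and 31.4 RPM (Prdm14) and 11.1 and 9.80 RPM (Prdm1).

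Early germ cell genes rose almost without exception, 16 of 17 tested and 0 lower, with a median log2 change of 3.996 against 0.34 over all tested genes. With median-ratio scaling 15 rose, the exception being Wdr77. Dppa3 (Stella), an oocyte and germ cell protein that protects DNA methylation from conversion in the zygote, was at 771 and 628 RPM in d4 PGCLCs, against 21.7 and 34.8 RPM in EpiLCs. Kit, the receptor of the SCF added to the medium, was at 297 and 308 RPM in d4 PGCLCs, against 6.48 and 5.80 RPM in EpiLCs. Nanos3, an RNA-binding protein that keeps migrating germ cells alive, was at 16.4 and 16.8 RPM in d4 PGCLCs, against 0.571 and 0.774 RPM in EpiLCs. For these genes the d4 PGCLC libraries lay above both EpiLC libraries, with log2 changes of 4.61 ± 0.24 for Dppa3, 5.41 ± 0.25 for Kit and 3.40 ± 0.38 for Nanos3.

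The interferon-induced membrane protein genes Ifitm3 (Fragilis) and Ifitm1, long used as early germ cell markers, rose too. Ifitm3 was at 975 and 930.5 RPM in d4 PGCLCs, against 68.6 and 91.3 RPM in EpiLCs. Ifitm1 was at 851 and 811 RPM in d4 PGCLCs, against 22.5 and 22.8 RPM in EpiLCs. Both were among the genes that gained most RPM in d4 PGCLCs, and since they are close paralogs, reads may be shared between them. The homeobox genes Rhox6 and Rhox9 of the X-linked Rhox cluster, another pair of near copies, had uneven d4 PGCLC libraries. Rhox6 was at 263 and 139 RPM in d4 PGCLCs, against 2.67 and 3.10 RPM in EpiLCs. Rhox9 was at 302 and 195 RPM in d4 PGCLCs, against 3.05 and 6.58 RPM in EpiLCs. Alpl, the tissue-nonspecific alkaline phosphatase used for staining germ cells, rose by 4.96 ± 0.24, and Dnd1, a partner of NANOS proteins on target RNAs, by 3.996 ± 0.24. Tcl1, a coactivator of AKT, was at 31.00 and 22.2 RPM in d4 PGCLCs, against 0.762 and 0 RPM in EpiLCs. The arginine methylation pair of the list moved least. Prmt5, the methyltransferase that works with PRDM1 in germ cells, was at 108 and 93.1 RPM in d4 PGCLCs, against 73.7 and 70.03 RPM in EpiLCs, and was not called (0.48 ± 0.24, limma adjusted p = 0.129). Its cofactor Wdr77 rose by 0.51 ± 0.18, a call lost without any 1 of the 4 libraries. The other 2 members fell short of the filter on low values. Cxcr4, the receptor that guides migration, was at 1.88 and 1.74 RPM in d4 PGCLCs, against 0 and 0 RPM in EpiLCs. Fut4, a fucosyltransferase gene, was at 4.70 and 3.09 RPM in d4 PGCLCs, against 1.90 and 2.32 RPM in EpiLCs. The level of Rhox5, the last of the 20 genes, was not analysed here.

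**Figure D2:**
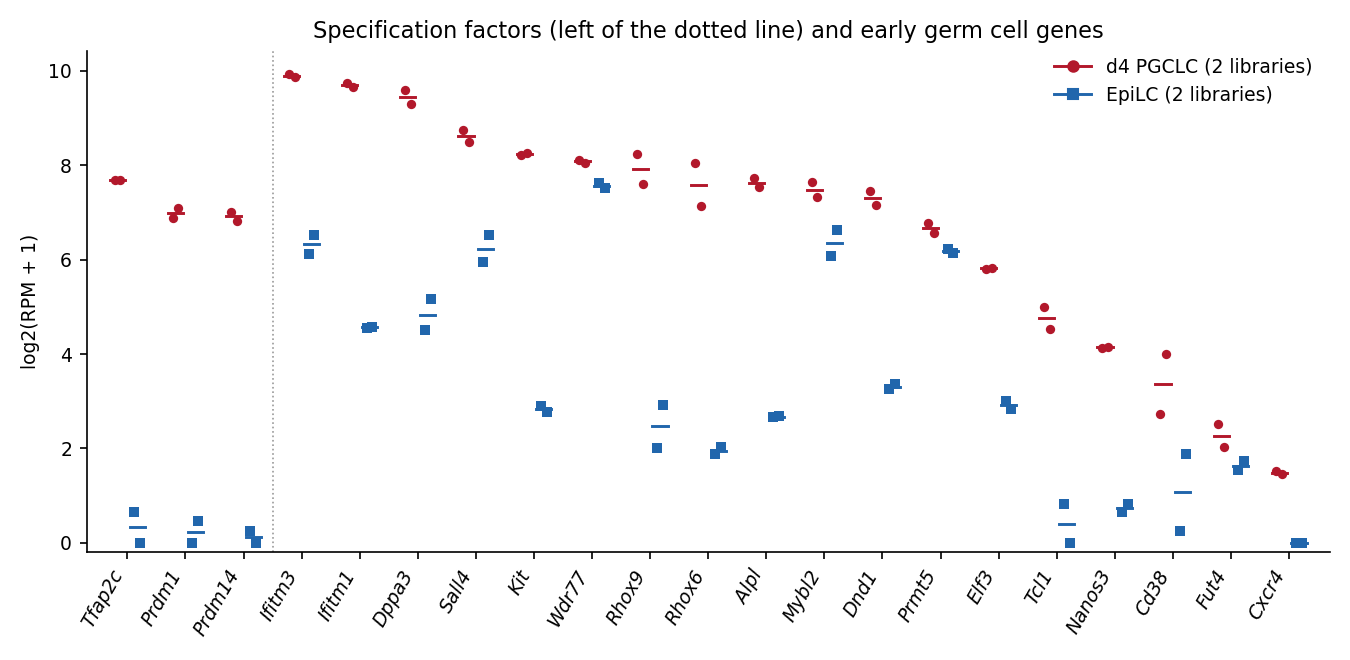
Level of the 3 specification factors (left of the dotted line) and 18 early germ cell genes as log2(RPM + 1) in each library; circles are d4 PGCLC and squares EpiLC libraries (2 each), and bars are group means. The groups are apart for every gene drawn, by 7.36 for Tfap2c and by 0.48 for Prmt5, which was not called.

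Signalling genes were read in the order of the factors added, beginning with BMP4. Of 16 tested BMP and SMAD pathway genes, 8 rose and 1 fell (median 1.89), under both scalings. Most of those that rose were feedback and target genes. Id3, an inhibitor of helix-loop-helix factors and a direct SMAD target, was at 549 and 578 RPM in d4 PGCLCs, against 38.7 and 46.4 RPM in EpiLCs. Id1 was at 43.7 and 53.7 RPM in d4 PGCLCs, against 2.48 and 5.42 RPM in EpiLCs. Id2, of the same family, was at 71.4 and 45.95 RPM in d4 PGCLCs, against 3.05 and 3.87 RPM in EpiLCs. Smad6, an inhibitory SMAD induced by BMP, was at 57.8 and 40.4 RPM in d4 PGCLCs, against 3.24 and 3.48 RPM in EpiLCs, and the homeobox gene Msx2 was at 96.3 and 66.2 RPM in d4 PGCLCs and listed at 0 in both EpiLC libraries. None of these overlapped between groups, and their log2 changes were 3.70 ± 0.28 (Id3), 3.39 ± 0.58 (Id1), 3.71 ± 0.46 (Id2) and 3.50 ± 0.48 (Smad6). Id4, the decoy receptor Bambi and the ligand Bmp7 also rose, by 2.89 ± 0.48, 2.49 ± 0.46 and 3.49 ± 0.29. Receptors and signal carriers showed smaller values that were not called: the type I receptor Bmpr1a had 0.33 ± 0.32, the common SMAD gene Smad4 0.59 ± 0.24 and Smad5 0.81 ± 0.34. The 1 gene that fell was Smurf1, a ubiquitin ligase for SMADs (-1.44 ± 0.40, limma adjusted p = 0.00871), and it was not called without EpiLC replicate 2.

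WNT pathway genes went in both directions, 7 of 16 higher and 4 lower (median 0.89), under both scalings. These shares, 43.75% and 25%, stand beside 27.5% and 12.1% over all tested genes with RPM as deposited. Lower calls numbered 2 without d4 PGCLC replicate 1. Targets of beta-catenin signalling were among those that rose. Axin2, a negative feedback target, was at 10.3 and 21.05 RPM in d4 PGCLCs, against 0 and 0.387 RPM in EpiLCs. Notum, a secreted enzyme that inactivates WNT ligands, was at 15.97 and 23.9 RPM in d4 PGCLCs, against 0.381 and 0 RPM in EpiLCs, and the target Sp5 was at 7.04 and 5.99 RPM in d4 PGCLCs and listed at 0 in EpiLCs. The nuclear effector Lef1 rose by 2.10 ± 0.47 to 101 and 78.97 RPM in d4 PGCLCs, against 17.3 and 23.2 RPM in EpiLCs, while Tcf7l1, the family member that represses targets, fell (log2 change -2.65 ± 0.53) to 17.4 and 14.7 RPM in d4 PGCLCs, against 103 and 108 RPM in EpiLCs. The receptor gene Fzd2 was at 2.35 and 0.386 RPM in d4 PGCLCs, against 55.4 and 54.2 RPM in EpiLCs. Fzd5 was at 24.4 and 22.8 RPM in d4 PGCLCs, against 5.52 and 6.96 RPM in EpiLCs. The receptors went opposite ways, with log2 changes of -4.69 ± 0.52 for Fzd2 and 1.77 ± 0.36 for Fzd5. Wnt5a, a ligand acting mostly without beta-catenin, was at 10.3 and 10.2 RPM in d4 PGCLCs and listed at 0 in EpiLCs.

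Among receptors and targets of LIF signalling, 8 of 11 tested genes rose and 0 fell under both scalings (median 2.29). Stat3, the transcription factor of the pathway, was at 59.6 and 65.7 RPM in d4 PGCLCs, against 10.1 and 2.71 RPM in EpiLCs. Socs3, its feedback inhibitor, was at 29.6 and 50.4 RPM in d4 PGCLCs, against 1.52 and 3.10 RPM in EpiLCs. The libraries of the groups were far apart for both, with log2 changes of 3.31 ± 0.39 and 3.62 ± 0.51. The receptor subunits Il6st (gp130) and Lifr rose by 2.42 ± 0.30 and 1.97 ± 0.41, Socs2 by 2.29 ± 0.22 and the early response gene Junb by 3.45 ± 0.43. Jak1, a kinase bound to the receptor, was at 41.8 and 37.7 RPM in d4 PGCLCs, against 36.95 and 43.7 RPM in EpiLCs, and was not called (-0.02 ± 0.37, limma adjusted p = 0.975).

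For the SCF and EGF arm, 10 of 13 tested genes of the KIT, EGF receptor and PI3K pathway rose and 1 fell (median 1.23), and with median-ratio scaling 6 rose and 1 fell. Without d4 PGCLC replicate 1 there were 5 higher calls. Akt1, the main kinase below PI3K, was at 212 and 223 RPM in d4 PGCLCs, against 31.4 and 41.8 RPM in EpiLCs. Its groups did not overlap, with a log2 change of 2.55 ± 0.19. Akt2 rose by 1.62 ± 0.28, Mtor by 1.42 ± 0.20 and the neuregulin receptor gene Erbb3 by 2.44 ± 0.32. Egfr, the receptor of EGF, was listed at 0 in both d4 PGCLC libraries and at 2.67 and 0.774 RPM in EpiLCs, below the filter on low values.

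Next come genes of the factors that had been present in EpiLC medium. In the Nodal and activin list 4 of 14 rose, a share near the 27.5% of all tested genes, and 3 fell (median 0.43), or 3 and 3 with median-ratio scaling, and without EpiLC replicate 2 or d4 PGCLC replicate 1 only 2 rose. In the 4 libraries alone, and with the ESC libraries added, 7 rose. The largest change of the list was in Tdgf1 (Cripto), the co-receptor of Nodal, at 65.3 and 116 RPM in d4 PGCLCs, against 1055 and 1062 RPM in EpiLCs, a log2 change of -3.59 ± 0.51. Lefty2, a feedback inhibitor, rose by 2.54 ± 0.41 to 162 and 237 RPM in d4 PGCLCs, against 30.5 and 35.2 RPM in EpiLCs, and the effector Smad3 by 1.51 ± 0.36. Fst, the activin-binding follistatin, fell by a log2 change of -2.67 ± 0.48. Nodal itself was at 21.1 and 17.4 RPM in d4 PGCLCs, against 11.2 and 8.51 RPM in EpiLCs, and was not called (0.90 ± 0.38, limma adjusted p = 0.0689).

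Of 22 FGF and MAPK pathway genes, 8 rose and 4 fell (median 0.91) under both scalings. These shares, 36.4% and 18.2%, stand beside 27.5% and 12.1% over all tested genes with RPM as deposited. Of the 4 genes that fell, 3 encode ligands. Fgf4 was at 0 and 1.35 RPM in d4 PGCLCs, against 147 and 116 RPM in EpiLCs. Fgf5 was at 4.23 and 4.63 RPM in d4 PGCLCs, against 46.1 and 48.8 RPM in EpiLCs. Fgf15 was listed at 0 in d4 PGCLCs, against 23.05 and 25.1 RPM in EpiLCs. The fourth was Myc, a target and growth regulator (-2.23 ± 0.59), whose call was lost without EpiLC replicate 2 or d4 PGCLC replicate 1. Receptors and feedback genes were among those that rose. Fgfr2 was at 44.1 and 32.8 RPM in d4 PGCLCs, against 3.43 and 0 RPM in EpiLCs. Fgfr1 was at 149 and 131 RPM in d4 PGCLCs, against 69.5 and 58.4 RPM in EpiLCs. The ERK phosphatase genes Dusp4 and Dusp5 rose by 2.13 ± 0.23 and 3.23 ± 0.50, the inhibitor Spred2 by 2.24 ± 0.27, and the ETS factor Etv5 by 1.36 ± 0.28. Dusp6, another ERK phosphatase, was at 14.1 and 13.3 RPM in d4 PGCLCs, against 16.95 and 17.02 RPM in EpiLCs, and was not called (-0.29 ± 0.62).

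Naive pluripotency genes came back in d4 PGCLCs unevenly, 11 of 16 higher and 2 lower under both scalings, with a median log2 change of 3.65. ESC values are given beside them as a description, with no test. Klf2, a Krüppel-like factor of that state, was at 149 and 113 RPM in d4 PGCLCs, against 0.571 and 0.387 RPM in EpiLCs, and at 119 and 117 RPM in ESCs. Esrrb, an orphan nuclear receptor, was at 196 and 177 RPM in d4 PGCLCs, against 5.52 and 4.26 RPM in EpiLCs, and at 305 and 310.4 RPM in ESCs. Tdh, the threonine dehydrogenase of pluripotent cells, was at 565 and 515 RPM in d4 PGCLCs, against 5.71 and 1.55 RPM in EpiLCs, and at 772 and 702 RPM in ESCs. The d4 PGCLC values of Klf2 lay on both sides of those in ESCs, and those of Esrrb and Tdh lay below them. Klf4, another factor of the naive state, stood at 5.17 and 4.05 RPM in d4 PGCLCs, against 1.52 and 0 RPM in EpiLCs, and at 142 and 151 RPM in ESCs. Its call as higher (1.81 ± 0.49) was lost without EpiLC replicate 2 or d4 PGCLC replicate 1. Tbx3, a T-box factor of the naive network, was at 1.41 and 0.579 RPM in d4 PGCLCs, against 0.762 and 0 RPM in EpiLCs, and at 42.7 and 43.3 RPM in ESCs, and was not called. Fgf4 and Dppa5a, an RNA-binding protein, were the members that fell, Dppa5a to 495 and 587 RPM in d4 PGCLCs, against 987 and 1116 RPM in EpiLCs. Nr5a2 and Tfcp2l1, both transcription factors of the network, rose by 4.79 ± 0.32 and 4.25 ± 0.32, and the adhesion molecule gene Pecam1 by 4.56 ± 0.25.

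The core pluripotency list was closer to the background, with 5 of 12 higher and 2 lower (median 0.35), or 4 higher and 3 lower (median -0.02) with median-ratio scaling. Sox2 was at 395 and 496 RPM in d4 PGCLCs, against 68.4 and 77.00 RPM in EpiLCs. Nanog was at 229.6 and 244 RPM in d4 PGCLCs, against 43.8 and 24.8 RPM in EpiLCs. Both rose with no overlap, by 2.59 ± 0.24 and 2.81 ± 0.49. Pou5f1 (Oct4), required in germ cells as in the epiblast, was at 412 and 493 RPM in d4 PGCLCs, against 244 and 264 RPM in EpiLCs, a rise of 0.83 ± 0.20 that was not called with median-ratio scaling (0.45, limma adjusted p = 0.141). Dppa4, a chromatin factor of pluripotent cells, fell by a log2 change of -1.50 ± 0.23. Utf1 was at 428 and 348 RPM in d4 PGCLCs, against 301 and 332 RPM in EpiLCs. L1td1 was at 228 and 262 RPM in d4 PGCLCs, against 234 and 269 RPM in EpiLCs. Neither was called.

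The formative and primed epiblast list, which describes the state that EpiLCs stand for, had 17 of 20 tested genes lower and 3 higher (median -3.40, against 0.34 over all tested genes), and 17 lower and 2 higher with median-ratio scaling. Otx2, a homeobox factor whose loss favours germ cell fate, was at 0.939 and 1.35 RPM in d4 PGCLCs, against 69.7 and 50.3 RPM in EpiLCs. Pou3f1 (Oct6) was at 0.470 and 1.54 RPM in d4 PGCLCs, against 127 and 192 RPM in EpiLCs. The kinase gene Pim2 was at 7.04 and 9.46 RPM in d4 PGCLCs, against 372 and 427 RPM in EpiLCs. In all 3 the EpiLC libraries were the high ones by more than an order of magnitude, with log2 changes of -4.82 ± 0.46, -6.35 ± 0.76 and -5.44 ± 0.40. Foxd3 and Zic5 were listed at 0 in both d4 PGCLC libraries, against 34.7 and 27.9 RPM for Foxd3 and 42.3 and 47.2 RPM for Zic5 in EpiLCs. Sall2 fell by a log2 change of -4.23 ± 0.55, Grhl2, a factor that opens epithelial enhancers, by -3.65 ± 0.51, and Tead2, a factor of the Hippo pathway, by -2.96 ± 0.42. Among the 3 members that rose were Lef1 (2.10 ± 0.47) and Cdh2 (1.76 ± 0.62), and the call of Cdh2, which encodes N-cadherin, was lost without any 1 of the 4 libraries and with median-ratio scaling. In bulk libraries, fewer cells that express a gene and less of its RNA per cell cannot be told apart.

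Primitive streak and mesoderm genes were mostly below the filter, with 4 of 20 tested, all of which rose. These had to reach the filter in some group, so their number is no measure of the list. Evx1, a homeobox gene of the posterior streak, was at 27.7 and 21.2 RPM in d4 PGCLCs and listed at 0 in EpiLCs, while Cdx1, a caudal homeobox gene, was at 11.7 and 13.7 RPM in d4 PGCLCs and also listed at 0 in EpiLCs. The leading genes of streak formation were low in both groups. T (Brachyury) was at 3.76 and 4.63 RPM in d4 PGCLCs, against 2.29 and 0.387 RPM in EpiLCs. Eomes was at 1.41 and 2.12 RPM in d4 PGCLCs, against 7.62 and 3.10 RPM in EpiLCs. Mixl1 was at 0.470 and 0.386 RPM in d4 PGCLCs, against 0.571 and 0.387 RPM in EpiLCs, with overlap between groups, and Mesp1 was listed at 0 in all 4 libraries. Of the Hox genes, Hoxb1 and Hoxb2 had at most 0.772 RPM in any of the 4 libraries.

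Genes of the DNA methylation machinery changed in both directions, with 7 of 15 tested genes higher and 4 lower (median 0.51), and 5 and 4 with median-ratio scaling. In the main fit 46.7% of the list rose and 26.7% fell, against 27.5% and 12.1% over all tested genes. Without d4 PGCLC replicate 1, 4 were higher. The de novo enzymes and their cofactor fell. Dnmt3b (chromosome 2, 153649411 to 153687730) was at 3.29 and 3.09 RPM in d4 PGCLCs, against 1414 and 1352 RPM in EpiLCs. This was the largest fall of the called genes without overlap, with predicted, microRNA, small nucleolar RNA and pseudogene names left out. Dnmt3a was at 25.8 and 14.7 RPM in d4 PGCLCs, against 206 and 245 RPM in EpiLCs. Dnmt3l, the catalytically inactive partner, was at 0.939 and 0.386 RPM in d4 PGCLCs, against 52.6 and 59.6 RPM in EpiLCs. Maintenance genes split. Dnmt1, which copies methylation after replication, was higher at 266 and 224 RPM in d4 PGCLCs, against 96.96 and 104 RPM in EpiLCs. Uhrf1, which brings DNMT1 to replicating DNA, was lower at 7.51 and 10.8 RPM in d4 PGCLCs, against 98.7 and 112 RPM in EpiLCs. Its relative Uhrf2, which does not replace it in that role, was higher at 194 and 147 RPM in d4 PGCLCs, against 37.9 and 29.02 RPM in EpiLCs. The log2 changes were 1.27 ± 0.25 for Dnmt1, -3.40 ± 0.41 for Uhrf1 and 2.31 ± 0.23 for Uhrf2, with no overlap between groups in any of the 3.

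On the side of removal, Tet1, which oxidises methylcytosine, rose by 0.89 ± 0.20 to 186 and 198 RPM in d4 PGCLCs, against 101 and 106 RPM in EpiLCs. Tet2 and Tet3 were low in both groups. Tet2 was at 3.29 and 2.51 RPM in d4 PGCLCs, against 1.90 and 1.55 RPM in EpiLCs. Tet3 was at 0.470 and 0 RPM in d4 PGCLCs, against 6.10 and 2.32 RPM in EpiLCs. Tdg, the glycosylase that excises oxidised bases, was at 69.5 and 80.1 RPM in d4 PGCLCs, against 82.9 and 86.3 RPM in EpiLCs, and was not called (-0.18 ± 0.23). Of the methyl-binding proteins Mbd1 rose by 1.88 ± 0.32. Hells, a chromatin remodeller for methylation, was at 109 and 115 RPM in d4 PGCLCs, against 110.1 and 113 RPM in EpiLCs, with a log2 change of 0.01 ± 0.31 (limma adjusted p = 0.983).

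Genes for methylation of histone H3 at lysine 9 (H3K9) were near the background, 3 of 15 higher and 1 lower (median 0.26), or 3 and 2 (median -0.10) with median-ratio scaling. In the 4 libraries alone, and with the ESC libraries added, 5 were higher and 2 lower. The methyltransferase gene Suv39h1 rose by 1.68 ± 0.40 to 24.9 and 12.7 RPM in d4 PGCLCs, against 6.10 and 3.87 RPM in EpiLCs, a call lost without d4 PGCLC replicate 1. The demethylase genes Kdm3a and Kdm3b rose by 2.35 ± 0.32 and 2.58 ± 0.29. Kdm3b was at 97.7 and 77.2 RPM in d4 PGCLCs, against 14.3 and 13.2 RPM in EpiLCs. Cbx1, which encodes the reader HP1 beta, fell to 94.9 and 104 RPM in d4 PGCLCs, against 181 and 209.7 RPM in EpiLCs (-0.96 ± 0.21). The enzymes that place the dimethyl mark were not called. Ehmt1 (GLP) was at 17.8 and 18.1 RPM in d4 PGCLCs, against 29.9 and 22.1 RPM in EpiLCs. Ehmt2 (G9a) was at 39.4 and 70.1 RPM in d4 PGCLCs, against 47.6 and 37.5 RPM in EpiLCs. Trim28, the corepressor of zinc finger proteins, was at 725 and 628 RPM in d4 PGCLCs, against 472 and 549 RPM in EpiLCs, and was not called either.

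Of 19 tested Polycomb and H3K27 genes, 8 rose and 0 fell (median 0.69), and with median-ratio scaling 5 rose and 1, Rbbp4, fell (-1.12). The share that rose in the main fit was 42.1%, against 27.5% over all tested genes, of which 12.1% fell. Without d4 PGCLC replicate 2, 5 rose. Phf19, an accessory subunit of Polycomb repressive complex 2 that recruits it to marked chromatin, had the largest change of the list, at 89.2 and 55.8 RPM in d4 PGCLCs, against 2.10 and 1.93 RPM in EpiLCs. Jarid2, another accessory subunit, which stimulates the enzyme, was at 296 and 249 RPM in d4 PGCLCs, against 87.1 and 69.6 RPM in EpiLCs. Mtf2 was at 170.5 and 221 RPM in d4 PGCLCs, against 91.1 and 91.7 RPM in EpiLCs. The changes of these accessory genes were 4.57 ± 0.32, 1.79 ± 0.22 and 1.08 ± 0.20, while the core subunit Eed rose by 1.12 ± 0.24 and the enzyme Ezh2, at 212 and 251 RPM in d4 PGCLCs, against 167 and 125 RPM in EpiLCs, was not called (0.67 ± 0.39). Whether accessory and core subunits differ was not tested. In the variant Polycomb complex 1 that binds germ cell genes in pluripotent cells, Max rose by 2.15 ± 0.29 to 122 and 130.1 RPM in d4 PGCLCs, against 29.5 and 25.9 RPM in EpiLCs. Of its partners there, Mga (0.67 ± 0.52), E2f6 (-0.06 ± 0.39), Pcgf6 (0.05 ± 0.33) and L3mbtl2 (0.39 ± 0.27) were not called. Rnf2, also a subunit of Polycomb complex 1, rose by 1.09 ± 0.40, a call lost with median-ratio scaling (0.72).

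**Figure D3:**
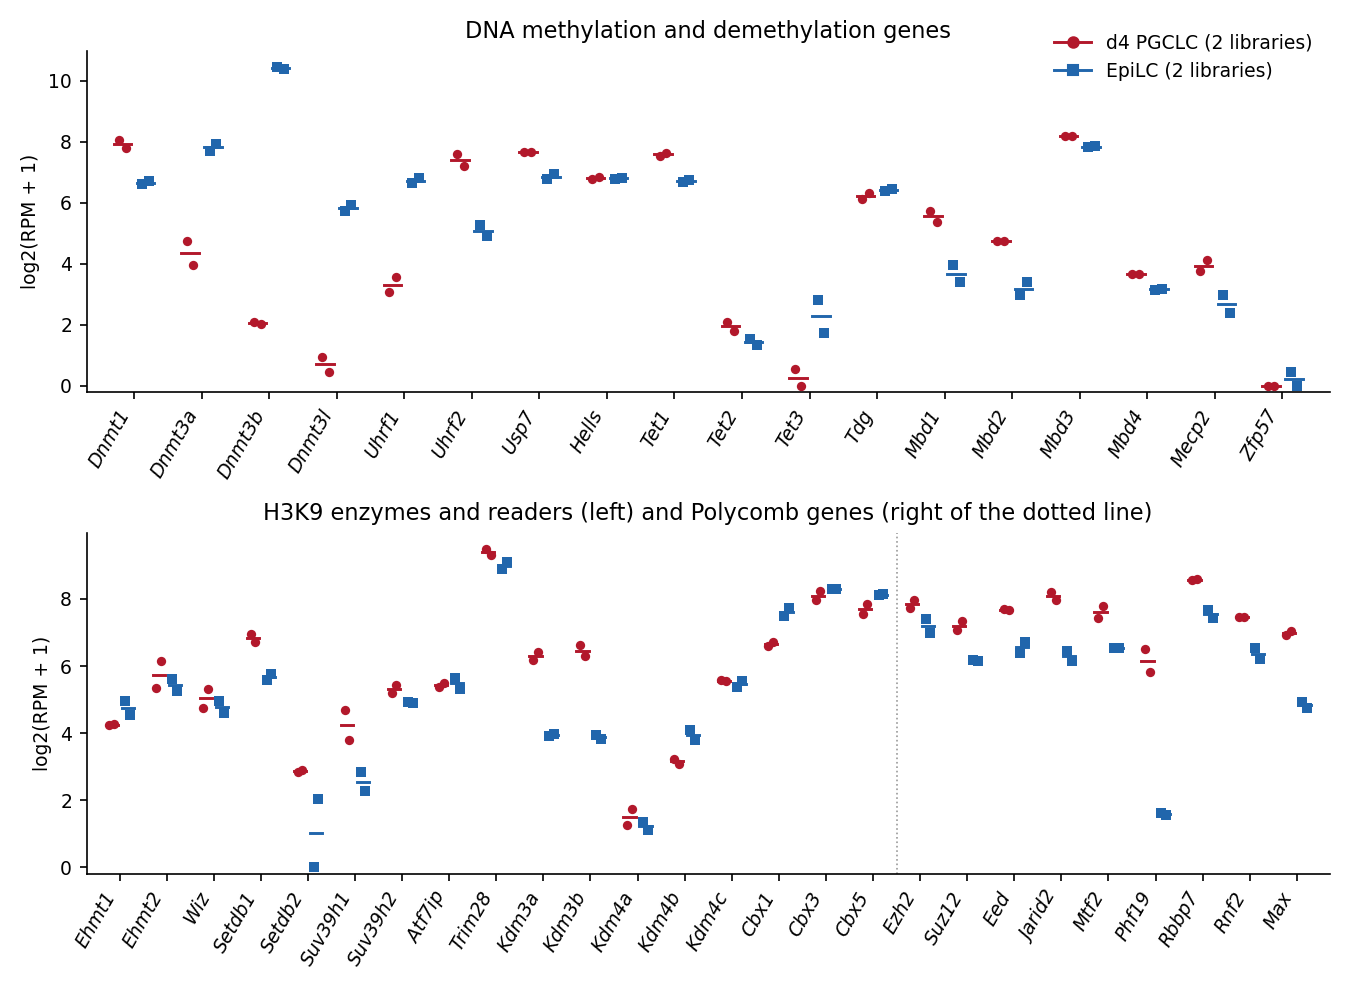
Level of DNA methylation genes (top), H3K9 enzymes and readers (bottom, left of the dotted line) and Polycomb genes (bottom right, subunits of complex 2 with Rnf2 and Max) as log2(RPM + 1) in each library; circles are d4 PGCLC and squares EpiLC libraries (2 each), and bars are group means. Dnmt3b, Dnmt3a, Dnmt3l and Uhrf1 are far lower in d4 PGCLCs, while Dnmt1, Uhrf2, Kdm3a, Kdm3b, Phf19, Jarid2 and Max are higher. Of 19 tested Polycomb genes only the 8 called higher and Ezh2 are drawn, so this part is no measure of the list. Ezh1, Aebp2 and Rbbp4, none of them called, are among those left out.

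Later germ cell genes, which serve meiosis and transposon control and are held silent by promoter methylation and Polycomb until germ cells reach the gonad, were more often lower than higher at day 4. Of 22 tested members 1 rose and 8 fell (median -1.21, against 0.34), and with median-ratio scaling 1 rose and 12 fell. Of the 8, Mov10l1, Fkbp6 and Slc25a31 were near the floor, with at most 3.81 RPM in any of the 4 libraries. They passed the filter only through other libraries of the series. The same holds for Hormad1 and for Smc1b, the member that rose, both below 10 RPM in all 4 libraries. Syce1, another of the 8, also needed other libraries to pass. It was at 0.939 and 0.965 RPM in d4 PGCLCs, against 5.91 and 11.6 RPM in EpiLCs. Lower calls numbered 5 without EpiLC replicate 1 or 2 and 4 without d4 PGCLC replicate 1, and 3 rose in the 6 libraries with ESCs. Sycp3, an axis protein of meiotic chromosomes, was at 2.35 and 2.12 RPM in d4 PGCLCs, against 68.96 and 60.4 RPM in EpiLCs. Mael (Maelstrom), of the piRNA pathway, was at 1.41 and 0.772 RPM in d4 PGCLCs, against 24.6 and 27.9 RPM in EpiLCs, Hormad1, a meiotic axis protein, at 0.470 and 1.16 RPM in d4 PGCLCs, against 7.81 and 8.13 RPM in EpiLCs. Hsf2bp, a meiotic recombination factor, was at 0.470 and 2.32 RPM in d4 PGCLCs, against 16.8 and 12.8 RPM in EpiLCs. EpiLC libraries were the high ones for each of the 4, with log2 changes of -4.34 ± 0.64, -3.72 ± 0.92, -2.33 ± 0.57 and -2.82 ± 0.39. The call of Hormad1 was lost with a pseudocount of 10 and with voom on inferred reads, and that of Mael with no filter on low values. Dazl and Ddx4, the RNA-binding protein and helicase that mark gonadal germ cells, were low in both groups. Dazl was at 2.35 and 3.48 RPM in d4 PGCLCs, against 12.2 and 11.2 RPM in EpiLCs. Ddx4 was at 5.17 and 12.2 RPM in d4 PGCLCs, against 18.7 and 18.6 RPM in EpiLCs. Both were called lower with median-ratio scaling but not with RPM as deposited. The 1 member that rose was Smc1b, a meiotic cohesin subunit, at 4.23 and 5.41 RPM in d4 PGCLCs, against 0.762 and 0.774 RPM in EpiLCs (1.71 ± 0.53, limma adjusted p = 0.0169), and this call was lost without any 1 of the 4 libraries.

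The promoters of these genes were read because MAX and its partners bind the E-box CACGTG. In the 250 bases before the annotated start, from RefSeq on GRCm38.p6, 13 of 28 later germ cell genes with a window held CACGTG (46.4%), against 9.09% of 7748 tested genes with a window and 6.05% of all 27025 windows. The share was 10.2% among genes called higher and 9.11% among genes called lower. The word reads the same on both strands. The E2F word TCCCGC, searched on both strands, stood in 35.7% of later germ cell windows and 32.6% of those of tested genes. The AP-2 word GCCNNNGGC, which also reads the same on both strands, stood in 17.9% of later germ cell windows and 21.2% of those of tested genes. Bases at the end of a word can also belong to another word. AP-2 words stood in 21.8% of windows of genes called higher and 20.3% of genes called lower, and 5 of 14 early germ cell windows, that of Rhox5 included, held one (35.7%). Median GC content was 58.4% in later germ cell windows and 60.4% in those of tested genes. A match describes letters only and is no evidence of binding. By call, 6 of 8 later germ cell windows of genes called lower held the word, 4 of 12 of those not called, 3 of 7 of those not tested and 0 of 1 called higher. Hsf2bp and Syce1 fell with no such word, while Stag3 and Ddx4 hold it and were not called. The windows of 3 genes that fell and hold CACGTG, in capitals, and of Smc1b, the 1 that rose, are shown as examples, 5′ to 3′ on the strand of the gene, and not as a pattern. They are chr10:88459337-88459586 (plus strand) for Sycp3, chr3:95559427-95559676 (plus strand, the first of 2 annotated starts) for Hormad1, chr1:166238745-166238994 (minus strand) for Mael and chr15:85131958-85132207 (minus strand) for Smc1b.
Sycp3: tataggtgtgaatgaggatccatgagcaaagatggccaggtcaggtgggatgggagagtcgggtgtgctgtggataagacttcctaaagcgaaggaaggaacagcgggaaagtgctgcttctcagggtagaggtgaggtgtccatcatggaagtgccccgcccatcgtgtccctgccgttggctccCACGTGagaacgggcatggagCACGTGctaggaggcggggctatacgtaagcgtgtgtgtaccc
Hormad1: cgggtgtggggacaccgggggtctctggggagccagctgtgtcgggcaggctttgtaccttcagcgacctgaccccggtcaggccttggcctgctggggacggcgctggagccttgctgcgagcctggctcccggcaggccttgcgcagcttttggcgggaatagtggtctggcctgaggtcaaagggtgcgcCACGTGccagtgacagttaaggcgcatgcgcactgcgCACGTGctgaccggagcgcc
Mael: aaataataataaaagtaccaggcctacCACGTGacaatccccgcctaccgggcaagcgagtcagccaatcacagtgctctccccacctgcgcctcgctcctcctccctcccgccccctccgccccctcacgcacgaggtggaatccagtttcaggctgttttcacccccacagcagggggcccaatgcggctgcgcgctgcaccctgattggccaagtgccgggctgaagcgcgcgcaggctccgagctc
Smc1b: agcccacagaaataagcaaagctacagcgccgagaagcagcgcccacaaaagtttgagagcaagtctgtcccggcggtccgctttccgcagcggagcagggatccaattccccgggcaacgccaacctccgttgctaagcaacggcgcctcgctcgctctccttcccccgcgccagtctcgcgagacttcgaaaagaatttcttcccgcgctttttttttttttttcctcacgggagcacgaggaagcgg
Sycp3 has its 2 copies starting 64 and 43 bases before the start, Hormad1 has 2 at 57 and 20 bases, and Mael has 1 at 223 bases.

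Of 21 tested S phase genes 8 rose and 2 fell (median 0.39), or 7 and 3 (median 0.02) with median-ratio scaling. Of 20 G2 and M phase genes 9 rose with 0 lower (median 0.50), or 3 and 0 with median-ratio scaling. With RPM as deposited 38.1% of S phase and 45.0% of G2 and M phase genes rose, against 27.5% over all tested genes. Of S phase genes 9.52% fell, against 12.1% over all tested genes. G2 and M phase genes called higher numbered 4 without d4 PGCLC replicate 1 and 15, with 1 lower, in the 4 libraries alone and with the ESC libraries added, and S phase genes called lower numbered 1 without EpiLC replicate 1 or d4 PGCLC replicate 1. Cdc45, a part of the replicative helicase, rose by 2.000 ± 0.20, and its companions Mcm6 and Mcm4 by 1.65 ± 0.19 and 1.35 ± 0.19, while Gins2 of the same helicase fell by a log2 change of -1.18 ± 0.23. Cenpf, a kinetochore protein of G2 and M phase, was at 185 and 186 RPM in d4 PGCLCs, against 32.8 and 34.4 RPM in EpiLCs, and the cyclin gene Ccnb2 rose by 1.45 ± 0.29. Cdk1 was at 188 and 201 RPM in d4 PGCLCs, against 255 and 269 RPM in EpiLCs, and was not called.

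The regulators of G1 included a change of D-type cyclin. Ccnd1 was at 0.939 and 3.28 RPM in d4 PGCLCs, against 82.7 and 82.02 RPM in EpiLCs. Ccnd3 was at 124 and 87.5 RPM in d4 PGCLCs, against 9.52 and 6.58 RPM in EpiLCs. Ccnd1 was the high one in EpiLCs and Ccnd3 in d4 PGCLCs, with log2 changes of -4.85 ± 0.58 and 3.56 ± 0.28. Of their partners, Cdk6 fell by a log2 change of -1.56 ± 0.38 and Cdk4 rose by 0.50 ± 0.16. Cdk6 was at 12.7 and 8.88 RPM in d4 PGCLCs, against 33.5 and 33.3 RPM in EpiLCs. Cdk4 was at 408 and 531 RPM in d4 PGCLCs, against 331 and 327 RPM in EpiLCs. The call of Cdk4 was lost with median-ratio scaling (0.13). The inhibitor genes Cdkn1a (p21) and Cdkn2d rose by 2.19 ± 0.32 and 1.54 ± 0.31. In all, 6 of 12 tested G1 regulators rose and 3 fell (median 1.12), or 4 and 3 with median-ratio scaling. With RPM as deposited that is 50% and 25%, against 27.5% and 12.1% over all tested genes.

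Trp53, which encodes p53, was at 446 and 408 RPM in d4 PGCLCs, against 12.6 and 13.5 RPM in EpiLCs, a log2 change of 4.93 ± 0.32. Known p53 targets were called in both directions. Cdkn1a rose, as given above, and Mdm2, the ubiquitin ligase for p53, was at 86.9 and 89.98 RPM in d4 PGCLCs, against 59.8 and 40.2 RPM in EpiLCs, a rise of 0.84 ± 0.29 that was not called without EpiLC replicate 2 or either d4 PGCLC replicate, with median-ratio scaling, with no filter on low values or with voom. The death genes Pmaip1 (Noxa) and Bbc3 (Puma) were lower. Pmaip1 was at 8.92 and 11.2 RPM in d4 PGCLCs, against 253 and 262 RPM in EpiLCs. Bbc3 was at 2.35 and 1.54 RPM in d4 PGCLCs, against 10.3 and 10.8 RPM in EpiLCs. Ccng1 fell by a log2 change of -1.81 ± 0.23 and Mcl1, a survival protein of the BCL2 family, by -0.79 ± 0.20, the last not called without EpiLC replicate 1. Bad, a death-promoting member, rose by 2.07 ± 0.29, and Bax was at 62.9 and 61.2 RPM in d4 PGCLCs, against 58.7 and 77.4 RPM in EpiLCs, and was not called. Of 16 tested p53 and cell death genes 3 rose and 5 fell (median -0.20), or 2 and 5 with median-ratio scaling, and 3 fell without EpiLC replicate 1. Called higher were 5 in the 4 libraries alone and 6 with the ESC libraries added. In the main fit 18.75% of the list rose and 31.25% fell, against 27.5% and 12.1% over all tested genes.

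In each of the metabolic lists lower calls outnumbered higher ones. The ATF4 and ER stress list, of genes induced when amino acids are short or proteins misfold, had 20 of 24 tested genes lower and 1 higher (median -1.74), or 21 and 0 with median-ratio scaling. Nupr1, a stress-induced nuclear protein, was at 2.35 and 1.74 RPM in d4 PGCLCs, against 75.4 and 84.7 RPM in EpiLCs. Trib3, a pseudokinase target of ATF4, was at 4.70 and 7.34 RPM in d4 PGCLCs, against 144 and 163 RPM in EpiLCs. Psph, of serine synthesis, was at 67.2 and 64.5 RPM in d4 PGCLCs, against 347 and 321 RPM in EpiLCs. Mthfd2, of mitochondrial folate metabolism, was at 100.0 and 72.8 RPM in d4 PGCLCs, against 317 and 271 RPM in EpiLCs. The groups were apart for all 4 genes, with log2 changes of -4.74 ± 0.53, -4.49 ± 0.46, -2.33 ± 0.36 and -1.77 ± 0.26. Eif4ebp1, a brake on translation, fell by a log2 change of -1.42 ± 0.19. The 1 higher gene was the ER chaperone Hsp90b1 (0.55 ± 0.16), not called without EpiLC replicate 2 or d4 PGCLC replicate 2 or with median-ratio scaling.

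Of 23 tested cholesterol synthesis genes 12 fell and 1 rose (median -0.995), or 15 and 1 with median-ratio scaling. Steps of the pathway differed in their values. Pmvk, the phosphomevalonate kinase, was at 12.7 and 16.6 RPM in d4 PGCLCs, against 120.4 and 116 RPM in EpiLCs. Hmgcs1, at the entry, was at 158 and 145 RPM in d4 PGCLCs, against 166 and 154 RPM in EpiLCs, and was not called (-0.08 ± 0.29). The 1 gene that rose was Ebp, a sterol isomerase, at 36.2 and 31.5 RPM in d4 PGCLCs, against 9.52 and 10.8 RPM in EpiLCs (1.64 ± 0.29). Srebf2, the transcription factor of the pathway, was at 86.9 and 88.4 RPM in d4 PGCLCs, against 94.9 and 78.9 RPM in EpiLCs, and was not called.

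Glycolysis genes had 10 of 21 lower and 2 higher (median -0.65), or 15 and 1 with median-ratio scaling, and 1 higher without EpiLC replicate 2 or d4 PGCLC replicate 1. Falls were large for lactate handling. Slc16a3, the lactate exporter, was at 0.939 and 2.70 RPM in d4 PGCLCs, against 83.2 and 82.8 RPM in EpiLCs. Ldha, which makes lactate, was at 61.99 and 39.97 RPM in d4 PGCLCs, against 597 and 575 RPM in EpiLCs. Their log2 changes were -4.97 ± 0.68 and -3.53 ± 0.62. Hk1, one of the hexokinases, rose by 1.53 ± 0.25, while Hk2 was at 16.9 and 28.00 RPM in d4 PGCLCs, against 30.1 and 35.2 RPM in EpiLCs, and was not called. Oxidative phosphorylation genes had 3 of 26 higher and 7 lower (median -0.23), or 0 and 13 with median-ratio scaling. Here the d4 PGCLC replicates were far apart for some genes. Cox6c, a subunit of cytochrome oxidase, was at 139 and 402 RPM in d4 PGCLCs, against 614 and 720.4 RPM in EpiLCs. Cox7c was at 449.9 and 942 RPM in d4 PGCLCs, against 1195 and 1437 RPM in EpiLCs. Both Cox genes lost their call without d4 PGCLC replicate 1, and Cox6c also without EpiLC replicate 2 and with no filter on low values. Lower calls of the list numbered 3 without EpiLC replicate 2 and 2 without d4 PGCLC replicate 1, and higher calls 1 without EpiLC replicate 1 and 0 without EpiLC replicate 2 or d4 PGCLC replicate 1. In the 4 libraries alone 5 were higher and 12 lower, and with the ESC libraries added 7 and 12.

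Cytosolic ribosomal protein genes took a smaller share of each d4 PGCLC library, 22.95% and 22.0% of RPM, against 29.2% and 30.1% in EpiLCs. Of 76 tested genes 33 fell and 1 rose (median -0.46), or 53 and 0 with median-ratio scaling. Lower calls numbered 17 without EpiLC replicate 1, 10 without EpiLC replicate 2, 16 without d4 PGCLC replicate 1 and 51 in the 6 libraries of d4 PGCLCs, EpiLCs and ESCs. Rps12 was at 4441 and 4629 RPM in d4 PGCLCs, against 10408 and 11102 RPM in EpiLCs. Rps24 was at 2164 and 2100.4 RPM in d4 PGCLCs, against 4759.8 and 4879 RPM in EpiLCs. Both fell with no overlap, by log2 changes of -1.25 ± 0.19 and -1.18 ± 0.16, and Rps12 was the gene that lost the most RPM of all. Reads of ribosomal protein genes may be shared with their many processed pseudogenes. RPM is a share of the library, so a smaller share of these genes leaves more for others, and how much of the median of 0.34 comes from this was not tested.

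**Figure D4:**
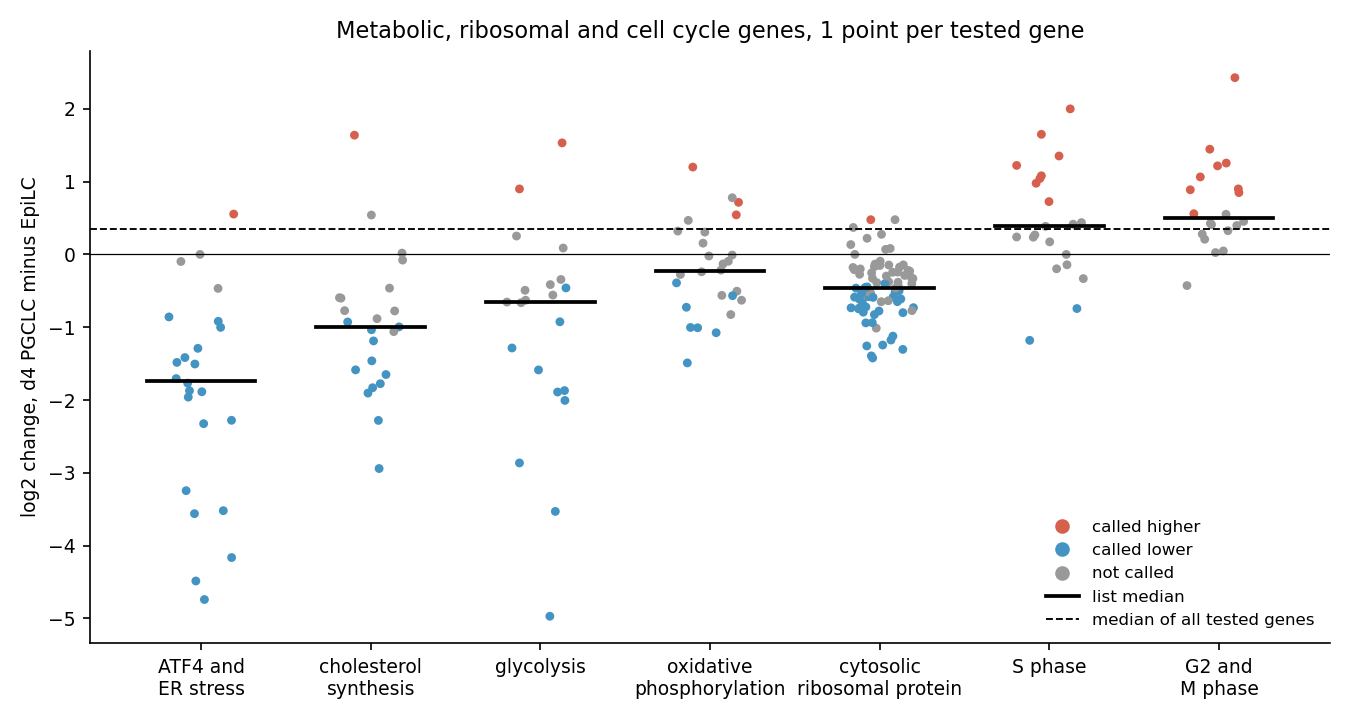
Log2 change (d4 PGCLC minus EpiLC) of each tested gene of 7 lists, with a point for each gene coloured by its call; solid bars are list medians and the dashed line is the median of all tested genes at 0.34. ATF4 and ER stress genes are centred at -1.74 and cholesterol synthesis genes at -0.995, ribosomal protein genes lie in a narrow band around -0.46, and S phase and G2 and M phase genes lie around the dashed line.

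Adhesion genes were called in both directions, 7 of 21 higher and 4 lower (median 0.19), or 4 and 6 (median -0.16) with median-ratio scaling. In the main fit 33.3% of the list rose and 19.05% fell, against 27.5% and 12.1% over all tested genes. Higher calls numbered 3 without EpiLC replicate 2 and 4 without d4 PGCLC replicate 1, while 7 genes fell in the 6 libraries with ESCs. Cdh1, which encodes E-cadherin, was at 155 and 129.6 RPM in d4 PGCLCs, against 598 and 542 RPM in EpiLCs. Cdh3, which encodes P-cadherin, was at 25.8 and 21.8 RPM in d4 PGCLCs, against 5.52 and 4.26 RPM in EpiLCs. The tight junction genes Cldn6 and Ocln fell by log2 changes of -2.69 ± 0.36 and -3.79 ± 0.49. Integrin subunit genes also went in both directions. Itga6, a laminin receptor subunit, was at 8.92 and 6.18 RPM in d4 PGCLCs, against 99.2 and 81.6 RPM in EpiLCs, and Itgb3 (CD61), one of the surface markers used to purify PGCLCs, was at 15.03 and 27.03 RPM in d4 PGCLCs and listed at 0 in EpiLCs. The epithelial splicing factor gene Esrp1 rose by 1.24 ± 0.23, and Epcam was at 108 and 125 RPM in d4 PGCLCs, against 131 and 126 RPM in EpiLCs, and was not called.

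Among imprinted genes 7 of 15 tested rose and 3 fell (median 1.09), or 6 and 4 with median-ratio scaling. The main fit shares of 46.7% and 20% stand beside 27.5% and 12.1% over all tested genes. H19, a maternally expressed long non-coding RNA, was at 101 and 65.3 RPM in d4 PGCLCs, against 2.48 and 5.03 RPM in EpiLCs. Its paternally expressed neighbour Igf2 was at 55.4 and 51.9 RPM in d4 PGCLCs, against 3.43 and 1.55 RPM in EpiLCs. Both rose with no overlap, by 4.17 ± 0.38 and 4.02 ± 0.76. Peg3 rose by 3.14 ± 0.28, Phlda2 by 1.96 ± 0.24 and Impact by 1.78 ± 0.27. Grb10, a growth inhibitor, was at 18.8 and 24.5 RPM in d4 PGCLCs, against 154 and 155 RPM in EpiLCs. Meg3, the non-coding RNA of the Dlk1 domain, was at 44.6 and 42.7 RPM in d4 PGCLCs, against 205 and 228 RPM in EpiLCs. Grb10 and Meg3 were the lower ones in d4 PGCLCs, by log2 changes of -2.79 ± 0.57 and -2.28 ± 0.49.

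**Figure D5:**
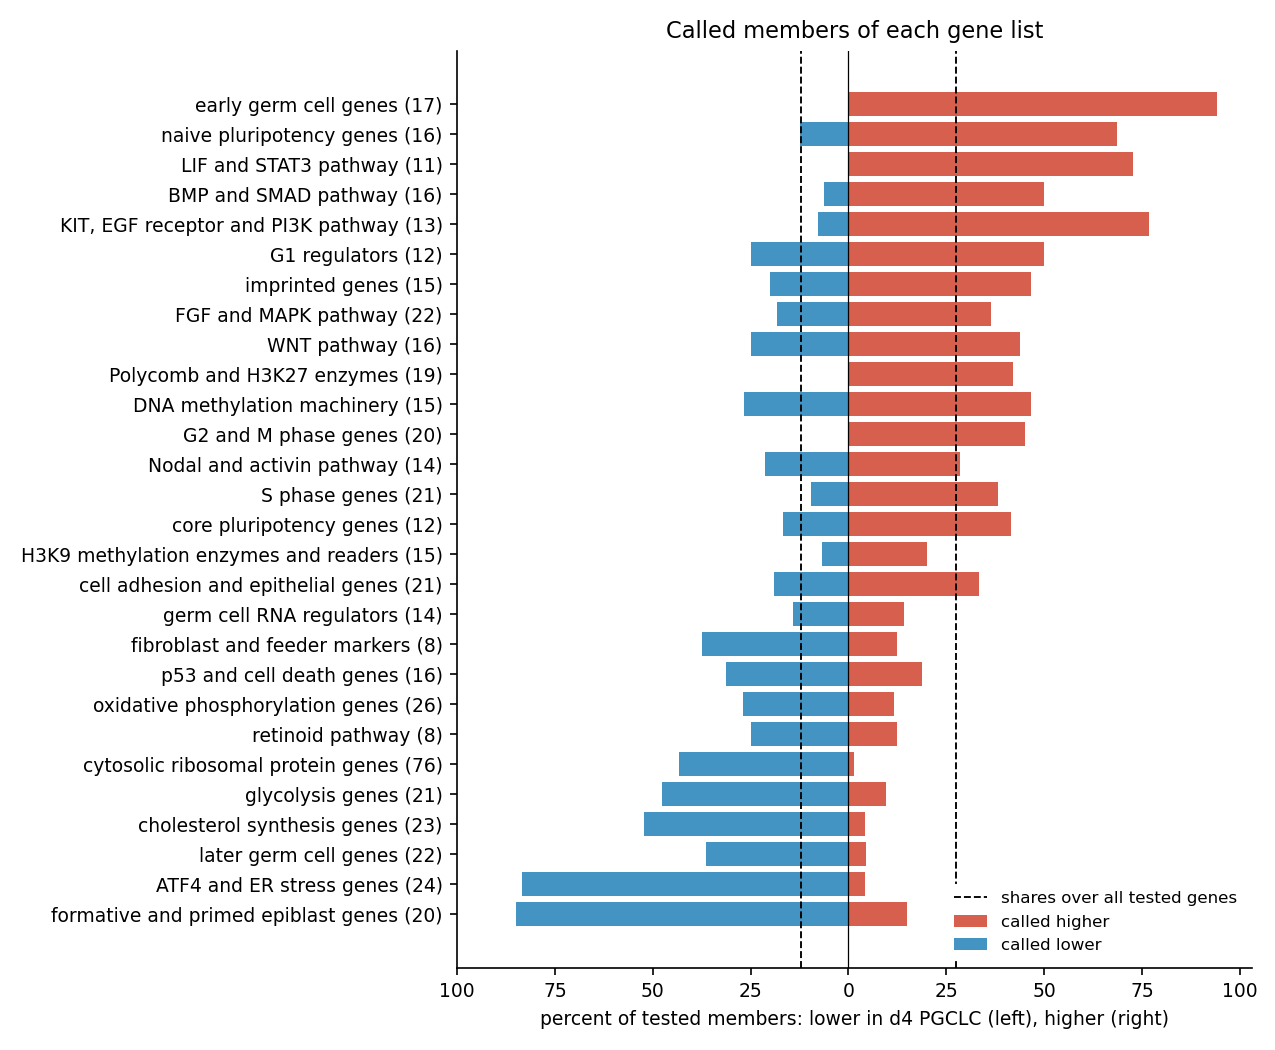
Share of the tested members of each gene list (number tested in parentheses) called lower (bars to the left) and higher (bars to the right) in d4 PGCLCs; dashed lines are the shares over all tested genes, 12.1% lower and 27.5% higher. Early germ cell genes reach 94.1% higher, formative and primed epiblast genes 85.0% lower and ATF4 and ER stress genes 83.3% lower; lists were not tested against each other.

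Outside the lists, the genes with the largest changes among those called without overlap included some with no set place in germ cell biology. Ap3b2, a subunit of the neuronal AP-3 adaptor, was at 292 and 244 RPM in d4 PGCLCs, against 1.14 and 2.32 RPM in EpiLCs. Grhl3, a grainyhead factor of surface epithelium, was at 112 and 86.3 RPM in d4 PGCLCs, against 0 and 0.774 RPM in EpiLCs. Glrx, a glutaredoxin, rose by 6.10 ± 0.27, Dsp, the desmosome protein desmoplakin, by 5.84 ± 0.36 and Ttc28 by 6.04 ± 0.41. Among the genes that fell were both phosphoribosyl pyrophosphate synthetase genes on the X chromosome, which feed nucleotide synthesis. Prps1 was at 0.939 and 2.51 RPM in d4 PGCLCs, against 169 and 135 RPM in EpiLCs. Prps2 was at 0 and 0.579 RPM in d4 PGCLCs, against 61.3 and 52.2 RPM in EpiLCs. Cth, the cystathionine lyase that makes cysteine, was at 8.92 and 9.65 RPM in d4 PGCLCs, against 543 and 516 RPM in EpiLCs. Their log2 changes were -5.87 ± 0.58, -5.52 ± 0.62 and -5.69 ± 0.49. The connexin gene Gja1 fell by a log2 change of -5.84 ± 0.49, and Calca, the calcitonin gene, Dok2, Crmp1 and Tmem54 by -5.89 ± 0.41, -5.87 ± 0.52, -5.86 ± 0.58 and -5.77 ± 0.53.

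The labels held for the defining markers: Prdm1, Prdm14, Tfap2c, Dppa3 and Nanos3 were the high ones in d4 PGCLCs, and Fgf5, Otx2, Pou3f1 and Dnmt3b in EpiLCs. Markers of other cells were summed per library. Of 8 tested fibroblast markers 1 was higher and 3 lower, of 4 neural markers 2 were lower, of 2 endoderm markers 1 was lower (0 without any 1 of the 4 libraries), of 2 trophoblast markers 1 was higher, and 0 blood markers passed the filter. The 14 fibroblast and feeder markers summed to 353 and 335 RPM in d4 PGCLCs and 145 and 139 RPM in EpiLCs, of which Sparc made up 342 and 316 RPM in d4 PGCLCs and 58.5 and 50.3 RPM in EpiLCs. Lum was listed at 0 in all 4 libraries and Dcn in both d4 PGCLC libraries. The 11 trophoblast markers summed to 147 and 115 RPM in d4 PGCLCs and 16.0 and 15.1 RPM in EpiLCs. Gata2 was at 115 and 80.7 RPM in d4 PGCLCs, against 0.952 and 0.774 RPM in EpiLCs, and Ascl2 at 13.1 and 6.57 RPM in d4 PGCLCs and at most 5.03 RPM in EpiLCs, while Elf5 and Tpbpa were listed at 0 in all 4. Neural markers (12) summed to 10.3 and 15.6 RPM in d4 PGCLCs and 118 and 127 RPM in EpiLCs, with Pax3, Zic1 and Six3 listed at 0 in all 4. Among them Tubb3 was at 2.82 and 2.51 RPM in d4 PGCLCs, against 61.3 and 60.4 RPM in EpiLCs. Nes was at 3.29 and 5.60 RPM in d4 PGCLCs, against 42.5 and 44.1 RPM in EpiLCs. The 12 endoderm markers summed to 20.7 and 10.04 RPM in d4 PGCLCs and 12.95 and 19.7 RPM in EpiLCs, with Sox17 at no more than 0.579 RPM. Blood and endothelial markers (11) summed to 6.11 and 12.0 RPM in d4 PGCLCs and 21.7 and 22.8 RPM in EpiLCs, with Ptprc and Tie1 listed at 0 in all 4. The part of other cells in the results was not tested.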

How the data were processed

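Each deposited file holds 1 library, with 1 RPM value per gene that the authors made and did not correct for length; 46 of 34896 listed genes have no value. The tools listed in the submitters' processing notes are cutadapt 1.3, Cufflinks 2.2.0 and TopHat 1.4.1, with the build mm10 and no roles. How reads were counted, on which annotation and strand, is not given in the sources used here. For this reason overlapping genes, antisense genes and near-identical copies may share reads. In the 4 libraries 99.7% to 99.8% of low values are whole multiples of 1 step (tolerance 0.02 reads), which gave the inferred depths, but a few values lie far below it, so no count model was the main test.

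Genes with at least 10 RPM in at least 2 of the 18 libraries were tested with limma 3.58.1 (trended eBayes; R 4.3.3) on log2(RPM + 1), with a mean for each of the 9 groups, 1 shared estimate of the spread (9 residual degrees of freedom) and Benjamini-Hochberg adjustment over all 9561 genes. Fold changes on this scale understate the change of low genes. Replicates of a tested gene differed by a median of 0.236 in d4 PGCLCs and 0.227 in EpiLCs on the log2 scale. Lists are described by counts and medians, with no test of a list. The members and lists were chosen with earlier results of these data known. Medians include genes listed at 0 in a group; with these set to 3 reads the median of the primitive streak list is 2.82 in place of 3.26, and that of all tested genes stays at 0.34. Named are the 3 specification factors, up to 8 called members of a list by smallest p and up to 4 that were not called, and the 12 genes called higher and 12 called lower with the largest change and no overlap, leaving out predicted, microRNA, small nucleolar RNA and pseudogene names. Some genes that the rule takes are not reported here. Beyond this rule, some members were named after their values were seen, to complete a role or because leaving out a library changed their call. Gene positions and promoter windows are from RefSeq on GRCm38.p6, 250 bases before each start. The fit was tested on simulated data with known changes. Alternatives were median-ratio scaling, other pseudocounts and filters, fewer libraries, a replicate block, leaving out each library and voom on inferred reads.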

Additional observations from a re-analysis of the deposited data

How the results depend on the processing

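No gene was called in opposite directions under any alternative. Beside 3784 calls (2629 higher, 1155 lower), median-ratio scaling gave 1645 higher and 1801 lower, a pseudocount of 0.1 gave 2528 and 1018, one of 10 gave 2767 and 1261, no filter 2200 and 1395, and voom on inferred reads 2730 and 1187. A filter at 50 RPM, which leaves 4713 genes, gave 2256 (1653 higher, 603 lower). Fits without libraries of other groups gave more calls. The 4 libraries alone gave 5438 (3687 higher, 1751 lower), and with ESCs added there were 5717 in all (1869 lower). Leaving out the 3 cultured libraries of widest replicate spread gave 5302 (3611 higher, 1691 lower). This choice was made after seeing the data, as was voom. Leaving out 1 library gave 2329 to 2761 calls, 1656 to 1873 higher and 673 to 915 lower, and the cause was not tested. The formative list had 10 lower calls at 50 RPM, where fewer of its genes were tested. The libraries share only a number (correlation of replicate differences 0.03, or 0.13 over 3337 genes of 50 RPM or more, 2 pairs), and the replicate block gave 3603 calls (2496 higher, 1107 lower). Ribosomal protein genes called lower ranged from 10 without EpiLC replicate 2 to 53 with median-ratio scaling, and G2 and M phase genes called higher numbered 3 with that scaling and 15 in the 4 libraries alone. Later germ cell genes called lower numbered 3 with voom, 4 with a pseudocount of 10 and 5 with no filter. Depth limits genes near 3 reads, and 2 libraries a group limit every SE.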

Other observations

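Over all tested genes 27.5% rose and 12.1% fell. Of 14 tested germ cell RNA regulators 2 rose and 2 fell (median -0.02, against 0.34 over all tested genes), or 1 and 4 with median-ratio scaling. The microRNA processing genes divided: Dgcr8 was at 131 and 90.4 RPM in d4 PGCLCs, against 28.6 and 33.7 RPM in EpiLCs. Dicer1 was at 77.02 and 70.3 RPM in d4 PGCLCs, against 47.4 and 32.9 RPM in EpiLCs. Drosha was at 49.8 and 55.2 RPM in d4 PGCLCs, against 79.6 and 90.9 RPM in EpiLCs. Their log2 changes were 1.78 ± 0.24, 0.88 ± 0.30 and -0.69 ± 0.24, and calls higher numbered 1 without EpiLC replicate 2 or without either d4 PGCLC replicate. Lin28b, which blocks the maturing of let-7, fell to 16.9 and 15.3 RPM in d4 PGCLCs, against 71.4 and 69.6 RPM in EpiLCs (-2.07 ± 0.53), and lower calls numbered 1 without any 1 of the 4 libraries. The RNA-binding genes Igf2bp1, Igf2bp2 and Igf2bp3 overlapped between groups, with Igf2bp1 at 141 and 104 RPM in d4 PGCLCs, against 130.1 and 133 RPM in EpiLCs.

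In the retinoid pathway 1 of 8 tested genes rose and 2 fell (median -0.27), or 1 and 3 with median-ratio scaling. Rdh11, a retinol dehydrogenase, was at 28.6 and 26.1 RPM in d4 PGCLCs, against 87.4 and 103 RPM in EpiLCs. The EpiLC libraries were the high ones, with a log2 change of -1.76 ± 0.42. Calls higher numbered 0 without EpiLC replicate 2 or d4 PGCLC replicate 1, and lower calls numbered 1 without any 1 of the 4 libraries. The enzymes that make retinoic acid were at the floor, with Aldh1a3 listed at 0 in all 4 libraries and Aldh1a2 at 0 and 0.965 RPM in d4 PGCLCs, against 0.952 and 0 RPM in EpiLCs.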
